A study of Homo sapiens with 9 samples.

Results

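The 9 genes described here encode 6 of the insulin-like growth factor (IGF) binding proteins (IGFBP2 to IGFBP7), the type 1 and type 2 IGF receptors (IGF1R and IGF2R) and the stress-responsive cytokine GDF15. They were taken by gene name as 9 of the 58735 genes of an OVCAR4 count table, with earlier results of these data known, and all 9 passed the filter on low counts. OVCAR4 is a human high-grade serous ovarian cancer line, and RNA-seq was used to ask how its transcripts differ when the adhesion-type membrane protein MPZL3 is depleted. All cells were transduced with shRNA lentivirus and selected with puromycin, and were grown in medium with serum and insulin. The scramble shRNA control (scr), shRNA#1-MPZL3 (shMPZL3 #1) and shRNA#2-MPZL3 (shMPZL3 #2) had 3 biological replicates each. The cells are bulk populations, so a change in RNA per cell and a change in the share of cells with the transcript cannot be told apart. Libraries held 15040102 to 27835841 counts. The 9 genes took 0.454% ± 0.035 of the counts in scr, 0.611% ± 0.038 with shMPZL3 #1 and 0.533% ± 0.035 with shMPZL3 #2 (mean ± SD, n = 3 each).

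IGF1 and IGF2 signal through IGF1R, a receptor tyrosine kinase that feeds the PI3K-AKT pathway. IGF2R carries IGF2 to the lysosome and also sorts lysosomal enzymes tagged with mannose 6-phosphate, and it has no kinase of its own. IGFBP2 to IGFBP6 are secreted, hold IGFs with high affinity, and so can keep the ligand from its receptor or deliver it, while IGFBP7 binds IGFs weakly and is mostly found with the extracellular matrix. GDF15 is a distant member of the TGF-beta family that cells release under mitochondrial, endoplasmic reticulum and genotoxic stress, and it acts on the brainstem receptor GFRAL. Several IGFBPs and GDF15 are among the proteins secreted by senescent cells.

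The genes lie on 8 chromosomes of GRCh38. IGFBP2 (chr2:216632828-216664436, plus strand) and IGFBP5 (chr2:216672105-216695525, minus strand) face each other tail to tail with 7668 bases between them. IGFBP3 lies at chr7:45912245-45921874 (minus strand), IGFBP4 at chr17:40443461-40457731 (plus), IGFBP6 at chr12:53097436-53102345 (plus) and IGFBP7 at chr4:57030773-57110385 (minus). IGF1R lies at chr15:98648539-98964530, IGF2R at chr6:159969099-160113507 and GDF15 at chr19:18374731-18389176, each on the plus strand. The RefSeq promoter table (GRCh38.p14), with 300 bases around each annotated start, held windows for 8 of the 9 genes, 10 windows in all, and had no entry for IGFBP7. 4 windows are given below, for IGFBP5 and GDF15, which rose with both shRNAs, for IGFBP3, the most abundant of the family, and for IGFBP6, which differed most between the shRNAs. They run 5′ to 3′ on the gene's strand, and capitals mark a TATA box (TATAAA), a GC box (GGGCGG), an AP-1 site (TGANTCA), a C/EBP-ATF element (TGATGNAA) or an E2-box (CAGGTG), on either strand.
IGFBP5, chr2:216695500-216695799, minus strand: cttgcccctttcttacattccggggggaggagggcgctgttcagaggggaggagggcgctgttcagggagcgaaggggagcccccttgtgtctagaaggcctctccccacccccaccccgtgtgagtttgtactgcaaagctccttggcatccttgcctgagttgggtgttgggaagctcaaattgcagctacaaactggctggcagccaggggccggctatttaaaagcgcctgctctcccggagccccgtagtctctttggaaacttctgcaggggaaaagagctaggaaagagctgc
GDF15, chr19:18385908-18386207, plus strand: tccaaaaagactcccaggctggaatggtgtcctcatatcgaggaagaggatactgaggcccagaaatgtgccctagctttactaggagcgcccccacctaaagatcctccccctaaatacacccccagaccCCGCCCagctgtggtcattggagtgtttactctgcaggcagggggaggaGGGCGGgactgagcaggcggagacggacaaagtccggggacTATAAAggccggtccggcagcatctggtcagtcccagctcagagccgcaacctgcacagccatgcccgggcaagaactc
IGFBP3, chr7:45921223-45921522, minus strand: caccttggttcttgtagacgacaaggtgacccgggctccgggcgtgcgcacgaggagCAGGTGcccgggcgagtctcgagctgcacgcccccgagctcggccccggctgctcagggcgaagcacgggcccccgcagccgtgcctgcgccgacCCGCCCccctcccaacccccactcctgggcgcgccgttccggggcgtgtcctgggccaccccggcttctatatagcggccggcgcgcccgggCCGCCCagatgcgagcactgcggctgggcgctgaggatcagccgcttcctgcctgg
IGFBP6, chr12:53097417-53097716, plus strand: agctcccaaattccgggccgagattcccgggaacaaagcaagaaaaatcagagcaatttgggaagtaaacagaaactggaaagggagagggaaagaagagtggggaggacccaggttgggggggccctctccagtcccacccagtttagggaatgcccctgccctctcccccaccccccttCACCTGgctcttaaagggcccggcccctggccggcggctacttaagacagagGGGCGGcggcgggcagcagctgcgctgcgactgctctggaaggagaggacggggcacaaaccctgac

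With the annotated start as position 0, the GDF15 window held GC boxes at -119 and -70 and a TATA box at -29. The IGFBP3 window held an E2-box at -193 and GC boxes at -98 and -6, and that of IGFBP6 an E2-box at -69 and a GC box at -17, with no overlap between these motifs. None of these letters was found in the IGFBP5 window, which says nothing of the factors themselves. The IGFBP3 window was the richest of the 4 in CpG, with 36 CpG dinucleotides and 74.7% G or C, against 11 and 59.3% for GDF15, 9 and 59% for IGFBP5 and medians of 14 and 58.7% over all 35116 windows. Over the 10 windows, the TATA box was found in 2, the GC box in 8, the E2-box in 4, and the AP-1 site and the C/EBP-ATF element in 0. The shares over all windows were 11.5%, 45.0%, 20.6%, 7.71% and 3.62%, in the same order. A match of letters is a description of the sequence and not a site shown to be used.

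The targeted transcript was examined first. MPZL3, in counts scaled by TMM to the mean library size (normalized counts, used throughout), was at 536, 611 and 587 in the 3 scr libraries, 119, 143 and 123 with shMPZL3 #1 and 284, 380.4 and 271 with shMPZL3 #2. All 6 knockdown libraries lay below all 3 control libraries, and the transcript was left at 0.222 times (95% CI 0.176 to 0.28) the control level with shMPZL3 #1 and 0.539 times (0.433 to 0.669) with shMPZL3 #2. MPZL3 was 2.43-fold higher with shMPZL3 #2 than with shMPZL3 #1 (adjusted p = 5.72e-05). The labelled cell type was checked with 8 serous epithelial markers, of which 7 passed the filter and WT1 did not, at 3 to 13 counts. Their summed normalized counts were between 101464 and 106704 in scr, between 106422 and 128273 with shMPZL3 #1 and between 104026 and 129086 for the other shRNA. Most of the sum came from the keratins KRT7 and KRT8, with scr means of 39249 and 30178, so it says little of the other markers. With shMPZL3 #1, MUC16 was called lower (log2 fold change -0.61, adjusted p = 0.00739). PAX8 (0.29, adjusted p = 0.0406), KRT7 (0.35, 0.0325) and CDH1 (0.41, 0.00256) were called higher. No marker was called with shMPZL3 #2.

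In the control cells the IGFBP transcripts covered a wide range of levels. Per kilobase of gene length, in CPM (read counts scaled to a fixed library total), IGFBP3 stood at 532.5 ± 32.5, IGFBP2 at 192.5 ± 9.3, IGFBP7 at 151 ± 30.4, IGFBP4 at 92.6 ± 5.7 and IGFBP5 at 57.6 ± 18.8 (mean ± SD, n = 3). GDF15 followed at 27.8 ± 2.96, IGF2R at 13.0 ± 1.0, IGFBP6 at 5.33 ± 0.91 and IGF1R at 2.37 ± 0.063. No neighbours in this order overlapped in their 3 control libraries, and the order was the same with raw library totals. The gene length is the exon bases of all annotated transcripts, 1 for IGFBP4, 5 for IGFBP2 and 19 for IGF1R. Transcripts made in these cells may be shorter. Levels, shares and ratios between genes rest on this length, which raw totals do not change. In normalized counts without regard to length, IGFBP3 was the 20th and IGFBP2 the 92nd most abundant of the 16928 genes tested. The ligands were close to absent as transcripts. IGF1 had 0 to 4 counts and IGF2 0 to 1 counts per library, and INS had 0 counts in all 9, which allows up to 3 counts per library, or 0.108 to 0.199 CPM. The insulin of the medium is not seen by RNA-seq.

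Fits over the 3 groups and with the shRNAs grouped were made with edgeR's two-sided quasi-likelihood test over 16928 genes, and a gene was called at a Benjamini-Hochberg adjusted p under 0.05. With both shRNAs grouped against scr, 3 of the 9 genes were called higher (IGFBP5, IGFBP7 and GDF15) and 0 lower, where 9.36% of all genes were called higher and 6.4% lower. At an unadjusted p under 0.05, 1 gene was lower (IGFBP2), and DESeq2 called 0 lower. With shMPZL3 #1, 6 were called higher and 2 lower, against 16.8% and 15.3% of all genes. With shMPZL3 #2, 3 were called higher and 0 lower, against 9.36% and 5.8% of all genes, and 0 were lower at an unadjusted p under 0.05 or by DESeq2. The genes called higher with each shRNA were the same 3, and 6.52% of all genes were. Both shRNAs were compared with the same 3 control libraries, so these comparisons are not independent. The median log2 fold change of the 9 genes was 0.28 grouped, 0.39 with shMPZL3 #1 and 0.21 with shMPZL3 #2, beside medians of 0.02, 0.01 and 0.00 over all genes. In 4 of the 9 genes (IGFBP5, IGFBP7, IGF2R and GDF15) all 6 knockdown libraries lay above all 3 controls, as did 11.8% of all genes.

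**Figure D1:**
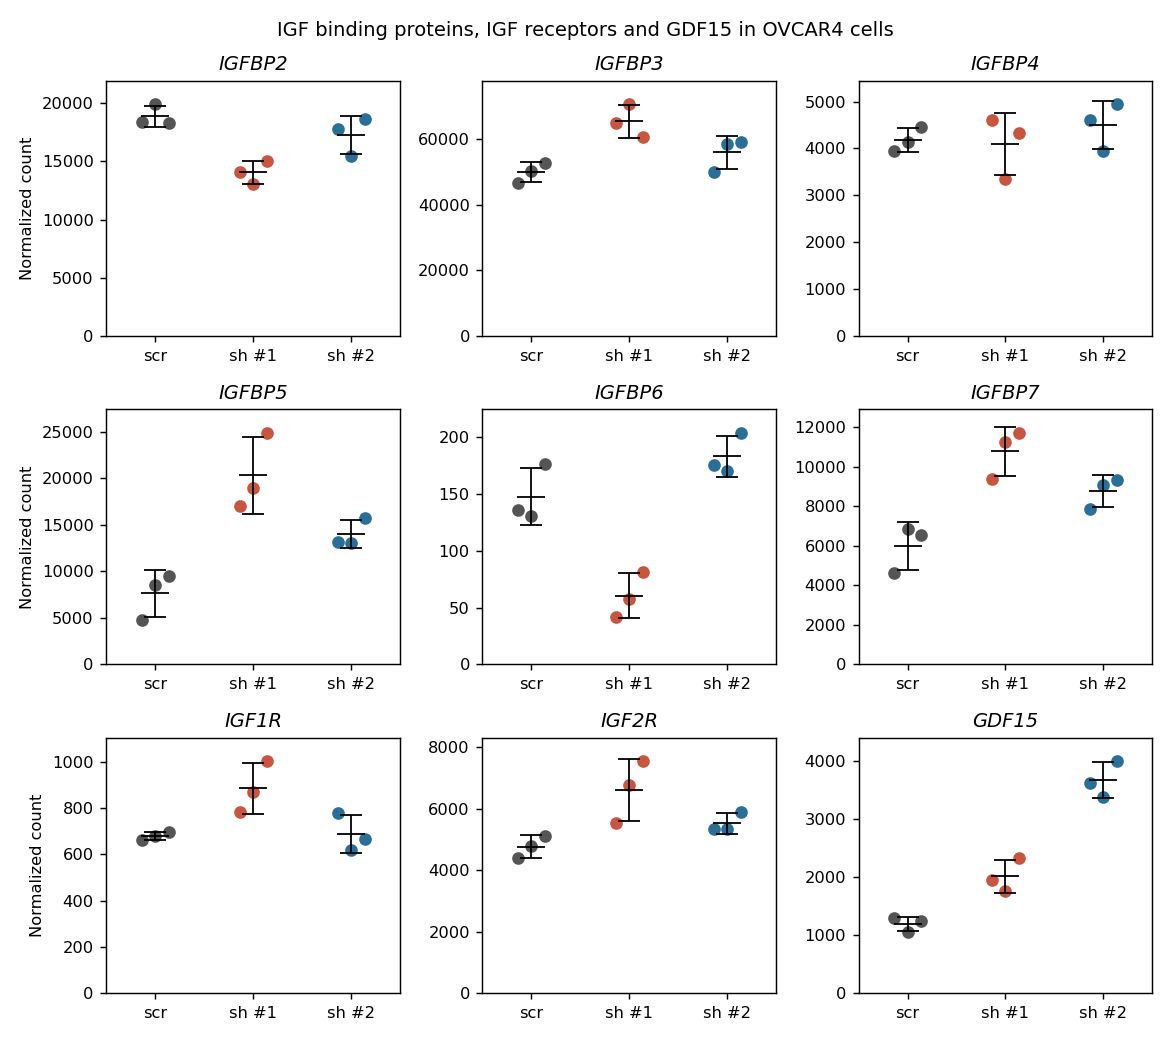
Normalized counts (vertical axes, starting at 0) of the 9 genes in the 3 scr, 3 shMPZL3 #1 (sh #1) and 3 shMPZL3 #2 (sh #2) libraries. Points are libraries, and the bars are the mean ± SD of 3. The GDF15 points separate into 3 levels, those of IGFBP6 are low with shMPZL3 #1 alone, and those of IGFBP4 overlap between all groups.

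IGFBP5 had the largest rise of the binding proteins. Its normalized counts were 4801, 8522 and 9530.4 in scr, 17019, 18976 and 24881 with shMPZL3 #1 and 13161, 13084 and 15767 with shMPZL3 #2. No knockdown library reached down to the control range, although scr replicate 1 stood well below the other two. The grouped log2 fold change was 1.17 ± 0.23 (SE), or 2.25-fold (95% CI 1.59 to 3.19, adjusted p = 0.00622), and the exact permutation test over libraries gave p = 0.0119, the smallest that 6 against 3 libraries allow. The rise was 2.66-fold with shMPZL3 #1 (adjusted p = 5.68e-05) and 1.84-fold with shMPZL3 #2 (adjusted p = 0.00478). The shRNAs differed by a log2 value of -0.53 (#2 minus #1, 95% CI -0.93 to -0.14), which missed the threshold (adjusted p = 0.0658) but passed it in 5 of 16 alternatives, among them the 6 knockdown libraries alone (adjusted p = 0.0181). Without scr replicate 1 the grouped log2 fold change was 0.92 (adjusted p = 0.0427).

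IGFBP7, the matrix-bound member with low IGF affinity, moved in the same direction with smaller steps. It was at 4607, 6825 and 6530.5 normalized counts in scr, 9349.9, 11228 and 11713 with shMPZL3 #1 and 7849, 9093 and 9337 with shMPZL3 #2. The groups did not overlap between knockdown and control. The grouped rise was 1.63-fold (95% CI 1.3 to 2.04, adjusted p = 0.00903, exact permutation p = 0.0119), with 1.8-fold for shMPZL3 #1 (adjusted p = 0.000201) and 1.46-fold for shMPZL3 #2 (adjusted p = 0.0108). The grouped call rested on scr replicate 1, without which the log2 fold change was 0.54 and the adjusted p 0.0716. For shMPZL3 #2 the adjusted p was 0.0649 on leaving out that control library and 0.0522 on leaving out replicate 3 of the shRNA itself, so neither fit kept the call. The gene shares 270 exon bases with POLR2B, an RNA polymerase II subunit gene on the opposite strand, and the libraries keep no strand. POLR2B had 33.4% as many counts as IGFBP7, and its grouped log2 fold change was -0.35 ± 0.11 (SE, adjusted p = 0.0451), opposite in sign to that of IGFBP7.

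The summed fibroblast markers were higher in all knockdown libraries than in the controls, as were IGFBP5 and IGFBP7. The summed normalized counts of 7 such genes were 379 to 465 in scr, 874 to 1273 with shMPZL3 #1 and 694 to 777 with shMPZL3 #2. The 3 that passed the filter were COL1A1, COL1A2 and LUM, of which COL1A1 and LUM were called higher with each shRNA. COL1A2 was not called with shMPZL3 #2 (log2 fold change 0.39, adjusted p = 0.368). The means of LUM were 153 with shMPZL3 #1 and 243 with shMPZL3 #2, the reverse of the order in IGFBP5 and IGFBP7. DCN had 0 counts in all 9 libraries, and PDGFRA, PDGFRB and COL3A1 had at most 2, 6 and 12 counts. The sum of 4 immune markers was 13.3 to 20.6 in scr, 22 to 40.7 with shMPZL3 #1 and 32.4 to 52.7 with shMPZL3 #2, that of 4 endothelial markers 168 to 208, 152 to 183 and 257 to 332, and that of 4 mesothelial markers 2658 to 2754, 1893 to 2610 and 2444 to 3776. The immune sum was thus also higher in all knockdown libraries than in the controls. Its gene CD14, at 3 to 34 counts, was called higher with each shRNA. Of the endothelial markers, CDH5 was called higher with shMPZL3 #2. Of the mesothelial markers, LRRN4 was called higher and UPK3B lower with shMPZL3 #1. These single immune, endothelial and mesothelial genes were named after their values were seen. The part of these sums in the IGFBP results was not tested.

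IGFBP2 and IGFBP3, the most abundant binding proteins, moved apart with shMPZL3 #1. IGFBP2 was at 18339, 19898 and 18305 normalized counts in scr, 14069.7, 13022 and 15036 with shMPZL3 #1 and 17747, 15459 and 18644 with shMPZL3 #2. IGFBP3 was at 46800, 50281 and 52886 in scr, 65033, 70737 and 60685 with shMPZL3 #1 and 50134, 58519.9 and 59346 with shMPZL3 #2. The shMPZL3 #1 libraries lay below all controls for IGFBP2 and above them for IGFBP3, while those of shMPZL3 #2 overlapped the controls for both. With shMPZL3 #1, IGFBP2 fell to 0.745 times the control (95% CI 0.644 to 0.861, adjusted p = 0.0037) and IGFBP3 rose 1.31-fold (1.13 to 1.52, adjusted p = 0.00684). With shMPZL3 #2 the values were 0.917 times (0.793 to 1.06, adjusted p = 0.435) and 1.12-fold (0.968 to 1.3, adjusted p = 0.295), and neither passed. Grouped, the log2 fold changes were -0.27 ± 0.12 for IGFBP2 (SE, adjusted p = 0.135) and 0.28 ± 0.11 for IGFBP3 (adjusted p = 0.1). The difference between the shRNAs did not pass either, with a log2 value of 0.30 (95% CI 0.09 to 0.51, adjusted p = 0.0506, under 0.05 in 4 of 16 alternatives) for IGFBP2 and -0.23 (-0.44 to -0.02, adjusted p = 0.14) for IGFBP3.

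IGFBP6, which prefers IGF2 over IGF1, was the member with the fewest counts and was called lower with shMPZL3 #1 alone. It was at 136, 130.2 and 176 normalized counts in scr, 42.1, 57.6 and 81.3 with shMPZL3 #1 and 175, 170.4 and 204 with shMPZL3 #2. All 3 shMPZL3 #1 libraries lay below the other 6, and the shMPZL3 #2 libraries overlapped the controls. It fell to 0.411 times the control with shMPZL3 #1 (95% CI 0.294 to 0.576, adjusted p = 0.00052), and was at 1.25 times with shMPZL3 #2 (0.913 to 1.71, adjusted p = 0.344). The direct difference was 3.04-fold (2.18 to 4.23, adjusted p = 0.000196), so the grouped log2 fold change of -0.27 ± 0.41 (SE, adjusted p = 0.7) averaged over unlike groups. The average of both shRNA effects in the 3-group fit was -0.48 (adjusted p = 0.0704), and leaving out 1 library moved the grouped value between -0.08 (without shMPZL3 #1 replicate 1) and -0.47 (without shMPZL3 #2 replicate 3). IGFBP4, a binding protein known to hold IGFs away from their receptor until it is cleaved, gave no call in any comparison. It was at 3942, 4148 and 4454 in scr, 4616, 3358 and 4335 with shMPZL3 #1 and 4606, 3952 and 4944 with shMPZL3 #2, and its grouped log2 fold change of 0.04 had a 95% CI of -0.21 to 0.30.

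**Figure D2:**
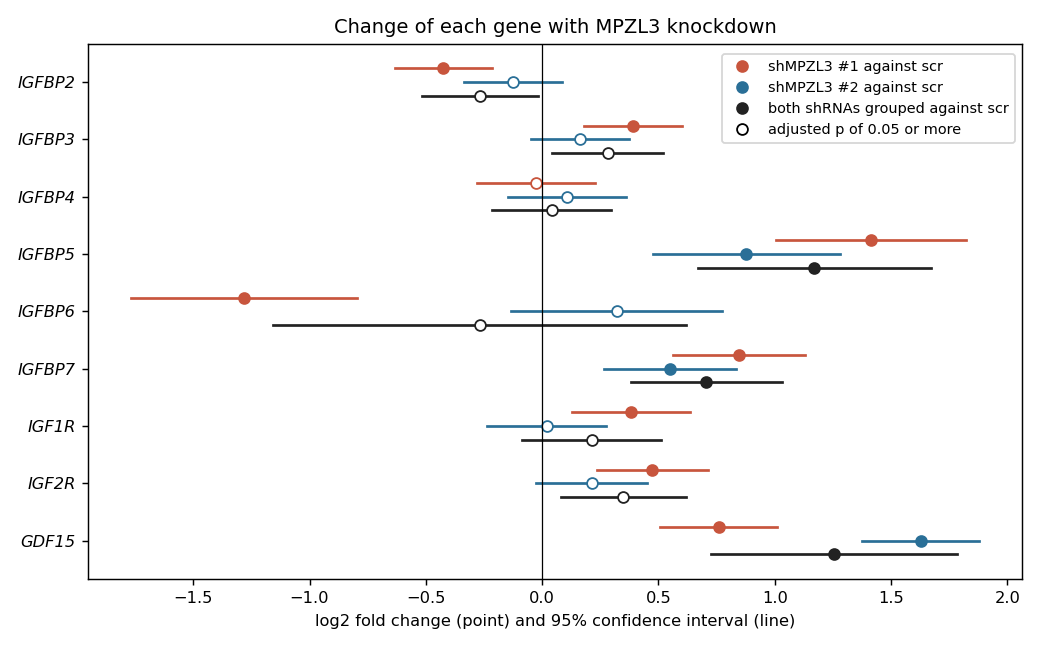
Log2 fold change (point) with its 95% confidence interval (line) for the 9 genes, for shMPZL3 #1, shMPZL3 #2 and both grouped against scr; filled points had an adjusted p under 0.05. IGFBP5, IGFBP7 and GDF15 are filled in all 3 comparisons, and IGFBP6 is filled at -1.28 for shMPZL3 #1 alone.

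The make-up of the IGFBP pool was also compared, as each gene's share of the summed CPM per kilobase of the 6 binding proteins. The sum itself was 1032 ± 88 in scr, 1359 ± 47 with shMPZL3 #1 and 1206 ± 87 with shMPZL3 #2, and every knockdown library was above every control library (exact permutation p = 0.0119). IGFBP3 remained the leading transcript in every library, with 51.7% ± 1.8 in scr, 51.4% ± 4 with shMPZL3 #1 and 49.4% ± 2.1 with shMPZL3 #2 (exact permutation p = 0.512). The share of IGFBP2 went from 18.7% ± 1.5 to 10.6% ± 0.86 and 14.7% ± 1.5, and those of all 6 knockdown libraries lay below the controls (exact permutation p = 0.0238). The IGFBP5 share was 5.5% ± 1.4, 11.3% ± 2 and 8.77% ± 0.5, and that of IGFBP7 14.5% ± 1.8, 19.9% ± 1.7 and 18.3% ± 0.71, both with all 6 knockdown libraries above the controls (exact permutation p = 0.0119 each). IGFBP6 held 0.516% ± 0.072, 0.16% ± 0.049 and 0.549% ± 0.032 (exact permutation p = 0.345). The IGFBP4 share was 8.99% ± 0.41, 6.71% ± 1.26 and 8.27% ± 0.93 (exact permutation p = 0.0952). For both, the knockdown libraries together overlapped the controls, and those of shMPZL3 #1 lay below them.

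With knockdown, IGFBP2 was lower relative to its neighbour IGFBP5, and so was IGFBP3, which lies on another chromosome. IGFBP5 is the divisor of both ratios and was itself higher in every knockdown library than in every control. These ratios are therefore not independent of the IGFBP5 rise. The ratio of IGFBP2 to IGFBP5 in CPM per kilobase ranged between 2.6 and 5.16 in the control libraries, between 0.817 and 1.12 in those of shMPZL3 #1 and between 1.6 and 1.82 in those of shMPZL3 #2. The 3 ranges did not overlap, and the exact permutation p of knockdown against control was 0.0119. With 3 libraries against 3, no permutation p can go below 0.1, so the ratio's difference between the shRNAs was left untested at 0.05. The ratio of IGFBP3 to IGFBP5 averaged 9.96 in scr, 4.69 with shMPZL3 #1 and 5.66 with shMPZL3 #2 (exact permutation p = 0.0119). That of IGFBP3 to IGFBP2 averaged 2.77, 4.9 and 3.4 in the same order. Here the knockdown libraries overlapped the controls (exact permutation p = 0.0476). These 10 quantities of the pool (the sum, 6 shares and 3 ratios) were each tested, and the p-values are unadjusted. Shares of one whole are tied to each other.

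**Figure D3:**
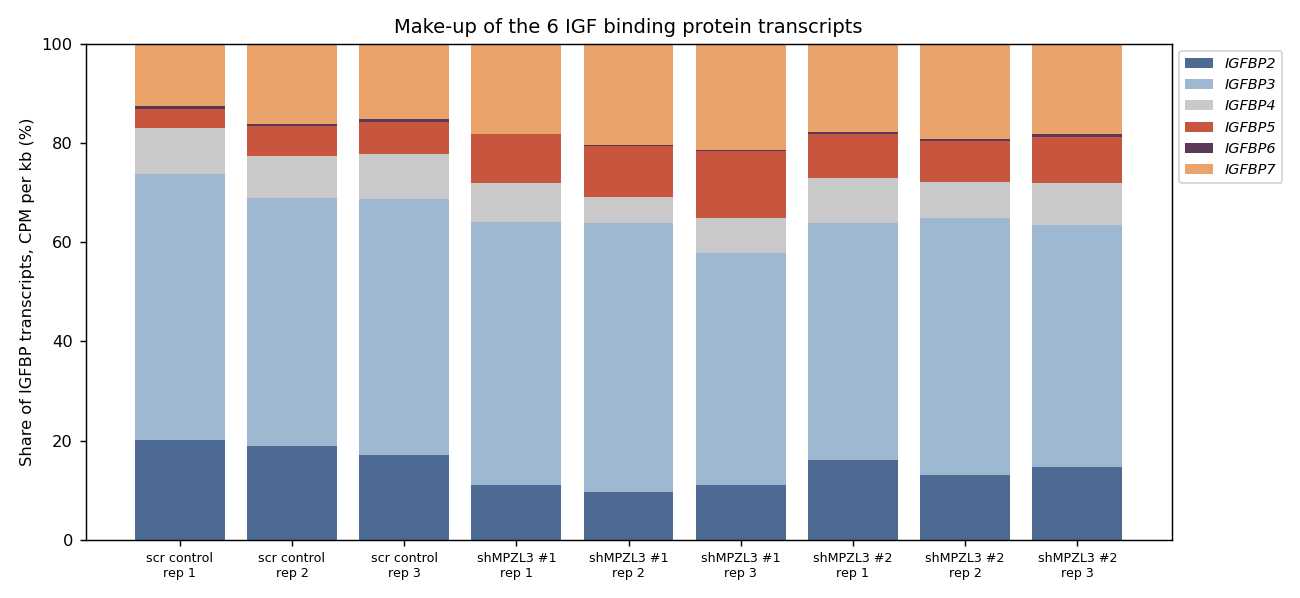
Share (%) of each of the 6 IGFBP transcripts in their summed CPM per kilobase, 1 stacked bar per library, 3 per group. IGFBP3 takes near 50% in all bars, the IGFBP2 segment is narrowest with shMPZL3 #1 at 10.6% on average, and the IGFBP5 segment is wider in the knockdown bars.

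The receptors rose with shMPZL3 #1. IGF1R was at 661, 681 and 697 normalized counts in scr, 785, 870.4 and 1003 with shMPZL3 #1 and 780.5, 618 and 668 with shMPZL3 #2. IGF2R was at 4391, 4781 and 5119.9 in scr, 5535, 6758 and 7549 with shMPZL3 #1 and 5323, 5336 and 5902 with shMPZL3 #2. For both receptors the shMPZL3 #1 libraries lay above the controls, and for IGF1R the shMPZL3 #2 libraries lay on both sides of them. With shMPZL3 #1 the rise was 1.3-fold for IGF1R (95% CI 1.09 to 1.55, adjusted p = 0.0218) and 1.39-fold for IGF2R (1.18 to 1.64, adjusted p = 0.0042). The IGF1R call was lost on leaving out any 1 of the control libraries (adjusted p = 0.0829, 0.0705 and 0.0583 without replicates 1, 2 and 3) or shMPZL3 #1 replicate 3 (adjusted p = 0.117). With shMPZL3 #2 the values were 1.01-fold for IGF1R (0.85 to 1.21, adjusted p = 0.938) and 1.16-fold for IGF2R (0.983 to 1.37, adjusted p = 0.223). IGF1R differed between the shRNAs by -0.36 on the log2 scale (#2 minus #1, 95% CI -0.62 to -0.11, adjusted p = 0.0479), and this call was lost in 9 of 16 alternatives. IGF2R did not pass that test (-0.26, 95% CI -0.50 to -0.02, adjusted p = 0.131). All 6 knockdown libraries were above the controls for IGF2R, but the grouped value of 1.27-fold missed the threshold (adjusted p = 0.073), as did that of IGF1R at 1.16-fold (adjusted p = 0.323).

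GDF15 had the largest grouped change of the 9 genes. It was at 1289.8, 1049 and 1239 normalized counts in scr, 1958, 1759 and 2328 with shMPZL3 #1 and 3633, 3390.1 and 4005 with shMPZL3 #2. The 3 groups formed 3 separate levels, with no library of one within the range of another. The grouped rise was 2.39-fold (95% CI 1.66 to 3.44, adjusted p = 0.00553, exact permutation p = 0.0238). It rose 1.69-fold with shMPZL3 #1 (1.42 to 2.01, adjusted p = 0.000169) and 3.09-fold with shMPZL3 #2 (2.59 to 3.68, adjusted p = 4.96e-07). The direct difference of 1.82-fold (1.54 to 2.16, adjusted p = 0.000125) had the larger rise with shMPZL3 #2, the shRNA that left more MPZL3.

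Between the shRNAs as a whole, 2 of the 9 genes were called higher with shMPZL3 #2 (IGFBP6 and GDF15) and 1 lower (IGF1R), where 7.56% of all genes were called higher and 7.56% lower. The median log2 difference of the 9 genes was -0.23 (#2 minus #1) beside 0.01 over all genes. IGFBP3, IGFBP5 and IGFBP7 also had all shMPZL3 #2 libraries below all shMPZL3 #1 libraries without passing the adjusted threshold, and IGFBP2 had them all above. The exact permutation p was 0.1 for each of these, the smallest that 3 libraries against 3 allow. The share of all genes separated in this way was not counted, so nothing is concluded from it.

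The rest of the pathway was read from 10 lists of 87 genes, none of them among the 9 described above, of which 75 passed the filter. With shMPZL3 #1, 16 of the 75 were called higher and 8 lower, beside 16.8% and 15.3% of all genes. With shMPZL3 #2, 12 were called higher and 3 lower, beside 9.36% and 5.8% of all genes. With each shRNA, 6 were called higher, beside 6.52% of all genes, and 1 lower. The share of all genes called lower with each shRNA was not counted. Among other receptors, the insulin receptor INSR had a grouped log2 fold change of 0.09 ± 0.10 (SE, adjusted p = 0.605). TMEM219, a reported cell death receptor for IGFBP3, rose by 0.46 ± 0.12 grouped (adjusted p = 0.0257), with 0.58 for shMPZL3 #1 (adjusted p = 0.000766) and 0.32 for shMPZL3 #2 (adjusted p = 0.0638). LRP1, an endocytic receptor that also binds IGFBP3, had 0.65 with shMPZL3 #1 (adjusted p = 0.00149) and -0.08 with shMPZL3 #2 (adjusted p = 0.743), and the difference of -0.73 passed (adjusted p = 0.0016). GFRAL, the receptor of GDF15, had 0 counts in all 9 libraries. Its coreceptor RET had 5 to 59 counts and INSRR 1 to 15, with grouped log2 fold changes of -0.05 and -0.21 that did not pass (adjusted p = 0.961 and 0.888). IGFBP1, which lies 18576 bases from IGFBP3 and is known as the binding protein lowered by insulin, had 1 to 34 counts (grouped log2 fold change 0.98 ± 0.72, adjusted p = 0.377). IGFBPL1 had 6 to 55 counts (0.83 ± 0.51, adjusted p = 0.286), and IGFALS, the acid-labile subunit of circulating IGF complexes, had 0 to 11 and was not tested.

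In the list of IGFBP-related genes, 5 matricellular CCN genes and KAZALD1 were tested. Of these 6, 3 were called higher with each shRNA, where 6.52% of all genes were. The related genes IGFBP1, IGFBPL1 and HTRA1 were in other lists, and none was called higher with each shRNA. HTRA1 had 0.66 with shMPZL3 #1 (adjusted p = 0.0252) and -0.37 with shMPZL3 #2 (adjusted p = 0.282). CYR61 (CCN1) had means of 24697 ± 2577, 41365 ± 4117 and 44555 ± 3228 normalized counts in scr, shMPZL3 #1 and shMPZL3 #2, a grouped log2 rise of 0.80 ± 0.11 (SE, adjusted p = 0.000713). CTGF (CCN2) rose by 0.69 ± 0.11 (adjusted p = 0.00139) and NOV (CCN3) by 1.46 ± 0.22 (adjusted p = 0.00113). WISP2 and KAZALD1, named after their values were seen, were called higher with shMPZL3 #1 as well, which made 5 of 6 beside 16.8% of all genes.

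Inside the cell, FOXO1, a transcription factor that AKT keeps out of the nucleus, rose with both shRNAs (grouped 0.61 ± 0.17, adjusted p = 0.0271), and PIK3CB, a catalytic PI3K subunit, fell with both (grouped -0.41 ± 0.10, adjusted p = 0.015). The other genes of this paragraph were named after their values were seen. Of 22 tested PI3K, AKT, mTOR and FOXO genes, 5 were called higher with shMPZL3 #1 (with FOXO1 also FOXO4, INPP4B, PIK3R3 and MTOR) and 3 lower (with PIK3CB also RPS6KB1 and EIF4EBP1), beside 16.8% and 15.3% of all genes. With shMPZL3 #2, 2 were called higher (FOXO1 and AKT1) and 2 lower (PIK3CB and PIK3R1), beside 9.36% and 5.8%. Among 8 tested receptor substrates and adaptors, IRS2 and GRB10 were called higher with shMPZL3 #2, where 9.36% of all genes were. Their log2 fold changes were 0.75 (adjusted p = 0.000503) and 0.41 (adjusted p = 0.00619), against 0.25 and -0.03 with shMPZL3 #1, which did not pass. Of 17 mannose 6-phosphate sorting and lysosomal genes, the cargo side of IGF2R, the lysosomal hydrolases GAA and GUSB were called higher and lower with shMPZL3 #1. They were at 0.70 and -0.85 on the log2 scale, and 16.8% and 15.3% of all genes were called higher and lower. With shMPZL3 #2, the small mannose 6-phosphate receptor M6PR (0.35) and the protease gene CTSB (0.46) were called higher, beside 9.36% of all genes. Of the 3 IGF2 mRNA binding proteins, 1 was called lower with each shRNA, IGF2BP3 with shMPZL3 #1 (-0.35, adjusted p = 0.0297) and IGF2BP2 with shMPZL3 #2 (-0.30, adjusted p = 0.029). The shares of all genes called lower were 15.3% and 5.8%.

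Among 8 transcription factors known to act on GDF15, ATF3 and DDIT3, both induced under stress, were called higher with each shRNA. 2 others, ATF4 and EGR1, were called lower with shMPZL3 #1. Over all genes, 6.52% were called higher with each shRNA and 15.3% lower with shMPZL3 #1. ATF3 rose by 1.18 ± 0.20 on the log2 scale grouped (adjusted p = 0.00246) and, as for GDF15, was higher with shMPZL3 #2 than with shMPZL3 #1 (difference 0.58 ± 0.14, adjusted p = 0.0118). DDIT3 rose by 0.78 ± 0.14 (adjusted p = 0.00331) and differed by 0.01 ± 0.15 between the shRNAs. ATF4, EGR1 and STC2 were chosen after their values were seen. ATF4, the translationally controlled activator of the integrated stress response, fell with shMPZL3 #1 (-0.64 ± 0.12, adjusted p = 0.000549) where GDF15 rose. It had 0.21 ± 0.12 with shMPZL3 #2 (adjusted p = 0.246). Like GDF15, ATF4 was higher with shMPZL3 #2 than with shMPZL3 #1 (difference 0.85 ± 0.12, adjusted p = 0.000146). Between the shRNAs, 3 of the 8 factors (ATF3, ATF4 and EGR1) were called higher and 0 lower. Over all genes, 7.56% were called higher and 7.56% lower. EGR1, an immediate early factor, fell with shMPZL3 #1 (-0.76 ± 0.18, adjusted p = 0.0038), had 0.03 ± 0.17 with shMPZL3 #2, and differed between the shRNAs by 0.78 ± 0.18 (adjusted p = 0.0064). STC2, which inhibits the IGFBP-cleaving protease PAPPA, fell by 0.69 on the log2 scale with shMPZL3 #1 (adjusted p = 0.000233) and rose by 0.86 with shMPZL3 #2 (adjusted p = 6.66e-05). PAPPA itself had 4 to 16 counts per library.

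**Figure D4:**
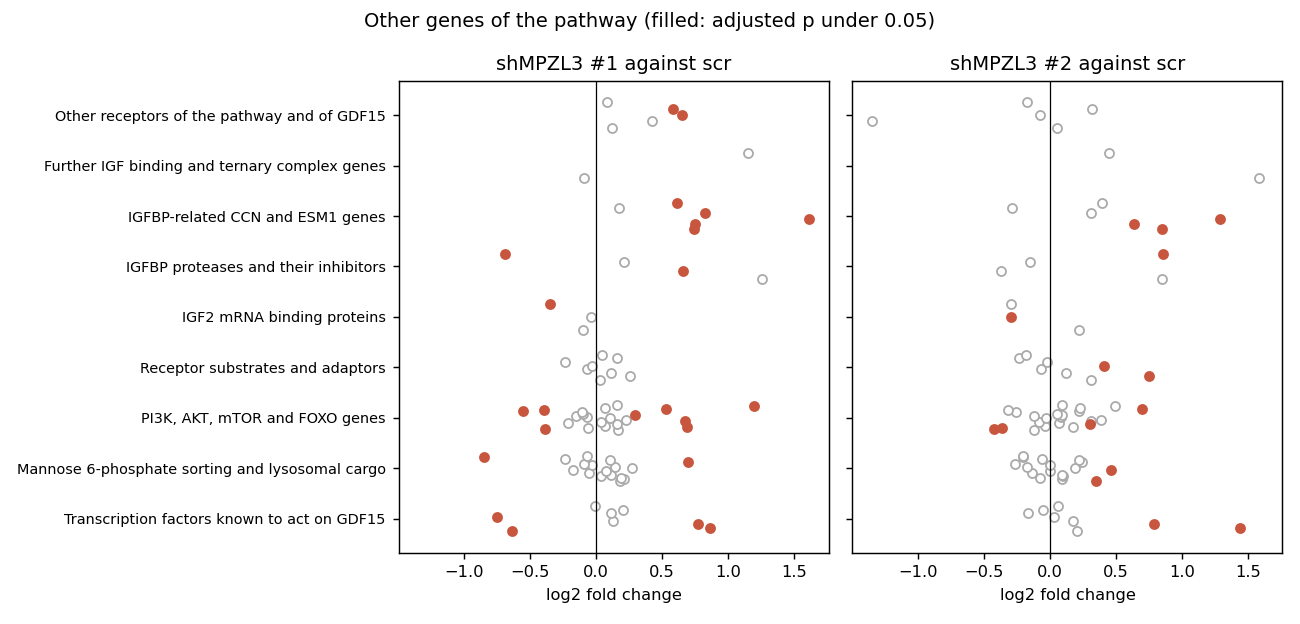
Log2 fold changes (horizontal axes) of the 75 tested genes of the pathway lists with shMPZL3 #1 (left) and shMPZL3 #2 (right) against scr, 1 point per gene, filled where the adjusted p was under 0.05. The ligand list has no tested gene and is not drawn. The list of CCN genes and KAZALD1 has 5 filled points of 6 on the left and 3 on the right, all above 0.

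As a description of pattern, the log2 CPM of each gene over the 9 libraries was compared with 11834 protein-coding genes. These 9 points share libraries, scaling and group differences, and r is given with no test. The closest genes were MICAL2 (r = 0.993), LAMB3 and ZNF350 for IGFBP5, ANKLE2 (r = 0.994), SVIL and CYP2E1 for IGFBP7, and FUT3 (r = 0.991), ADM2 and SLC1A4 for GDF15. For IGFBP2 they were HNRNPUL2 (r = 0.986) and REEP4, for IGFBP3 HRASLS (r = 0.96), FAM122C and ZNF226, for IGFBP4 TIMM17B (r = 0.971), TNFRSF1A and ALDOA, and for IGFBP6 RELT (r = 0.981), SMAD3 and ATP6V1F. For the receptors they were PLXNA1 (r = 0.979), ARHGEF40 and CELSR2 with IGF1R, and MCC (r = 0.98), S100A2 and FOXO4 with IGF2R. Within the 9 genes, IGFBP5 and IGFBP7 had r = 0.98, IGFBP2 and IGFBP3 had r = -0.858, and GDF15 and IGF1R had r = 0.033.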

How the data were processed

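The authors extracted RNA from OVCAR4 cells, prepared non-directional libraries from poly-A RNA and deposited a table of unnormalized counts, 1 column per library. The submitters' processing notes name HISAT2 2.0.5, featureCounts 1.5.0-p3 and hg38, and the paper's methods name DESeq2 for their own comparisons. All 58735 genes matched GENCODE 29 in position and name, and the deposited gene length equals its summed exon bases. Groups were taken from the labels. Library depth was 15040102 to 27835841 counts, and limits for counts of 0 cover counting error only. The chi-square per gene between replicates was 3.03 to 21.2, so none was counted as a duplicate. No batch is given in the labels, and p-values of the 3-group fit measure the spread between biological replicates of 1 cell line. Those of the grouped comparison, and of its permutation tests, treat the libraries of both shRNAs as 1 group. Their spread therefore also takes in the difference between the shRNAs.

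Counts were analysed with edgeR 4.0.16 (filterByExpr, TMM, quasi-likelihood test, 2-sided, Benjamini-Hochberg over 16928 genes) in R 4.3.3. The 6 knockdown libraries were compared with the 3 controls, and a fit with 3 groups gave each shRNA against scr and shMPZL3 #2 against shMPZL3 #1. Exact 2-sided permutation tests on log2 CPM (prior count 2), or on shares and ratios, used scipy 1.17.1. The code was tested on simulated counts. Alternatives were DESeq2 1.42.0, RLE and upper-quartile scaling, no filter, at least 10 counts in every library, a replicate block, averaging both shRNA effects of the 3-group fit, the 6 libraries compared alone, and leaving out each library.

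The members and lists were chosen with earlier results of these data known. Besides the 9 genes, the rule named list genes called with each shRNA in 1 direction (at most 4 per list), all genes of the lists of ligands, other receptors and further IGF binding proteins, overlapping genes with over 1% of a member's counts, and the 3 protein-coding genes (average log2 CPM of at least 1) closest in pattern to each member, of which 1 is not reported here.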

Additional observations from a re-analysis of the deposited data

Results flagged for a closer look

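The effect of the knockdown differed between the shRNAs, by a direct test of shMPZL3 #2 against shMPZL3 #1, for 3 of the 9 genes. Over all genes, 7.56% were called higher and 7.56% lower in this test. The log2 difference (#2 minus #1) was 1.60 for IGFBP6 (adjusted p = 0.000196), 0.87 for GDF15 (adjusted p = 0.000125) and -0.36 for IGF1R (adjusted p = 0.0479). The IGF1R call was kept in only 7 of 16 alternatives. MPZL3 itself differed by 1.28 in the same comparison, with more transcript left by shMPZL3 #2.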

How the results depend on the processing

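The calls of IGFBP5 and GDF15 in the grouped comparison and with each shRNA, of IGFBP2, IGFBP3, IGFBP6, IGFBP7 and IGF2R with shMPZL3 #1, and of IGFBP6 and GDF15 between the shRNAs held in all 16 alternatives run for each. Averaging both shRNA effects of the 3-group fit, which has a smaller spread within groups, 5 genes were called higher and 1 lower against scr, where IGF2R (adjusted p = 0.0161), IGFBP3 (0.0258) and IGFBP2 (0.0233) passed. DESeq2 also called IGF2R higher in the grouped comparison (adjusted p = 0.0452). The labels give no shared source for a replicate number, and the numbers were not taken as pairing, since not every same-number correlation of deviations from the group means was over 0.1. Between the 2 shRNAs these correlations were 0.137, 0.218 and 0.097, against -0.147 to 0.0038 for unlike numbers, so each knockdown library was closest to its own number in the other shRNA. Those with scr were -0.0014 to 0.111, against -0.097 to 0.067 for unlike numbers. With a replicate block, 4 genes in place of 1 were called lower with shMPZL3 #2 than with shMPZL3 #1 (with IGF1R also IGFBP5, adjusted p = 0.00217, IGFBP7, 0.0179, and IGF2R, 0.0391), and IGFBP2 was called higher (0.018). Leaving out 1 library gave 0 to 3 lower. The cause was not tested. Over all genes, the grouped counts of 1584 higher and 1083 lower became 2479 and 2198 with that average and 453 and 172 without scr replicate 1, and the counts between the shRNAs, 1279 higher and 1280 lower, became 2015 and 1808 with the block, 667 and 802 without shMPZL3 #2 replicate 3, 741 and 906 without its replicate 1 and 786 and 798 without shMPZL3 #1 replicate 3. With shMPZL3 #2 against scr, 1585 higher and 982 lower became 2083 and 1597 with the block, 910 and 488 without scr replicate 1 and 1012 and 354 without shMPZL3 #2 replicate 3. The sign of IGFBP4, never called, turned without scr replicate 1 in the grouped comparison (leave-one-out range -0.0062 to 0.104), and with shMPZL3 #1 under upper-quartile scaling (0.0043), at 10 counts in every library (0.0099) and in leave-one-out fits (without scr replicate 3 or shMPZL3 #1 replicate 2, range -0.099 to 0.099). That of IGF1R with shMPZL3 #2, also not called, turned without scr replicate 1 or shMPZL3 #2 replicate 1 (range -0.094 to 0.087). Of 324 leave-one-out values of single genes, 300 kept their direction and their side of the threshold, as did 237 of 252 others.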
